A study of Mus musculus with 19 samples.

Results

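The Ccl2, Ccl7, Ccl11, Ccl12 and Ccl8 chemokine cluster was described by the 37 accessible regions of mouse bone marrow-derived macrophages that overlap chromosome 11 from 81890000 to 82030000 (mm39), out of 140383 in a consensus peak list made from ATAC-seq, an assay that marks open DNA by transposase insertion. The regions were taken by position alone, and none crossed an edge of the window. The nearest peaks outside lay 1.81 kb before it, with a fold of 11.4, and 0.341 kb after it, with a fold of 15.9.

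The study holds 19 samples in 10 groups. Control macrophages came from Csf1r-Cre mice and Smarca5-deleted macrophages from Smarca5lox/lox Csf1r-Cre mice, and 4-hydroxytamoxifen was given daily while both differentiated, so controls also carry the Cre and the drug. Csf1r-Cre is made in cells that use the Csf1r promoter, that is mainly in the macrophage lineage. Smarca5 encodes the ATPase of ISWI remodellers, which space nucleosomes. Cells of each genotype were untreated, or were exposed for 1 or 2 h to LPS (10 ng/ml), a bacterial cell wall product, or to interferon beta (100 U/ml), an antiviral cytokine. Of the groups, 9 had 2 samples and the control group exposed to interferon beta for 1 h had 1. The list does not tell samples apart. No genotype or treatment could therefore be compared in this locus, no replicate error exists for any value below, and the depth is unknown.

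Chemokines are small secreted proteins that guide migrating leukocytes through receptors on their surface. Ccl2, Ccl7 and Ccl12 encode ligands that draw monocytes from the blood through the receptor CCR2, Ccl8 encodes a related chemokine, and Ccl11 encodes eotaxin, which draws eosinophils through CCR3. Macrophages are a major source of Ccl2, and LPS and type I interferon are both known to raise its transcription in these cells. The genes arose by duplication and lie side by side. In the RefSeq annotation of GRCm38.p6, an earlier build used here for names and order only, the order is Ccl2 (gene 20296), Ccl7 (20306), Ccl11 (20292), the long noncoding RNA gene Gm38913, Ccl12 (20293) and Ccl8 (20307). The long noncoding RNA genes Gm11419 and Gm31522 precede Ccl2, and Ccl1 follows Ccl8. On mm39, the start of Ccl2 was taken as near 81926400 on the plus strand, good to about 0.1 kb. Positions of the other 4 starts on mm39 were not used here, so their regions are given by distance from Ccl2 and none is assigned to Ccl7, Ccl11, Ccl12 or Ccl8. For the same reason, macrophage marker genes were not checked.

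The promoters of Ccl12 and Ccl8 are shown because they were the 2 of the 5 cluster promoters matched in the RefSeq table of GRCm38.p6. Each line gives the 150 bases before the start, 5′ to 3′ on the plus strand, which is the strand of the gene, and capitals mark TATAAA, the core of the TATA box that positions the start of transcription.
Ccl12: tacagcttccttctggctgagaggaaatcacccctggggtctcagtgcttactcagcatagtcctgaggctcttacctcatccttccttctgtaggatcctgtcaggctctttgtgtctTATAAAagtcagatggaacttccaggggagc
Ccl8: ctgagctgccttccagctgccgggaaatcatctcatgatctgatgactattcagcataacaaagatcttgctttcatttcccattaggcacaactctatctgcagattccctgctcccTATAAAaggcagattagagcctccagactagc

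Both promoters held TATAAA on the strand of the gene, with its first base 31 bases before the start in Ccl12 and 32 bases before it in Ccl8. Of 32851 promoters in the table, 8.32% held these letters anywhere in their 300 bases on that strand, and 1.75% held them with the first base 25 to 35 bases before the start. The motif was chosen after the letters had been seen. When the promoters were laid side by side without gaps, 36.0% of the 250 bases before the start were identical. TATAAA did not line up in this layout, while some stretches, such as ggaaatca, did. Such a layout misses letters shared at shifted places, and the share for unrelated promoters was not computed. Words for 5 factors were searched on both strands of the 300 bases, and neither promoter held any of them, which says only that these letters are not in these windows. They were the AP-1 word TGANTCA (in 7.81% of all promoters), the NF-kB word, GGG and CC parted by any 5 bases (50.8%), the interferon response word, 2 copies of GAAA parted by any 2 bases (3.44%), the PU.1 word GAGGAAGT (3.20%) and the C/EBP word TTGCNNAA (10.8%). The letters under the mm39 peaks were not analysed here.

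The chemokine window was densely accessible. Its 37 peaks gave 264 peaks per Mb, against 84.9 per Mb on chromosome 11 and 52.9 per Mb over the list. The peaks covered 10679 bp, or 7.63% of the window, compared with 2.17% of chromosome 11. When the autosomes and X were tiled with 18774 windows of this length, the median window held 3 peaks, 38.1% held none, and 111 windows (0.591%) held at least 37. On chromosome 11, 17 of 871 windows did. The density fell away on both sides: the adjoining window of the same length held 12 peaks on the low side and 16 on the high side. These are counts over one list, with no test.

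**Figure D1:**
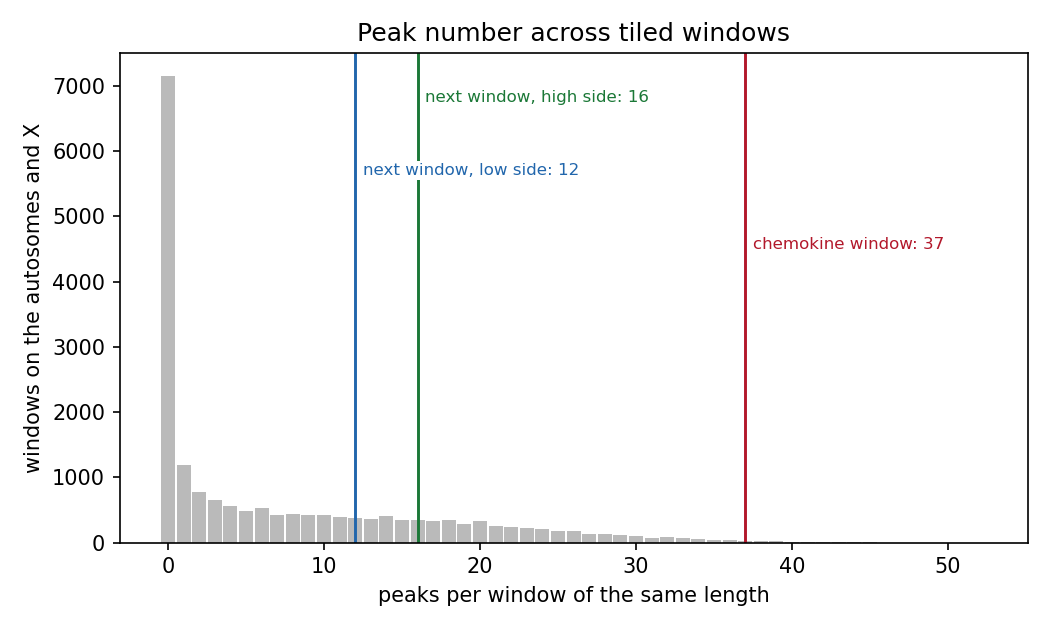
Histogram of the number of peaks (x axis) in tiled windows of the same length on the autosomes and X (y axis, number of windows). Lines mark the chemokine window with 37 peaks and the adjoining windows with 12 and 16; the chemokine window stands in the far right tail.

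Peaks in the window were many but mostly not of high fold. The authors' fold enrichment, the height of a peak over its local background, had a median of 8.30 in the window, with quartiles of 5.08 and 13.7, against a median of 9.85 over the list. Only 6 of the 37 peaks (16.2%) reached the list's upper quartile of fold, 15.7, which 25.0% of all peaks reach. Such folds were usual for crowded windows: over the 111 tiled windows with at least 37 peaks, the median fold had a median of 7.82, and 35 of them had one at least as high as the chemokine window. The authors' −log10 q, the evidence for a peak, leaned the other way. Its median was 76.4 in the window and 45.3 over the list, and 16 of 37 peaks (43.2%) reached the upper quartile of 116, which by construction 25.0% of the list reach. Peaks were also somewhat wider, with a median of 228 bp against 196 bp, and 13 of 37 (35.1%) were at least 300 bp wide, against 24.9% of the list. With 37 peaks the medians are loose: their 95% order-statistic intervals, which treat peaks as independent, were 5.53 to 12.5 for fold, 42.2 to 175 for −log10 q and 184 to 317 bp for width, and each takes in the list's median.

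**Figure D2:**
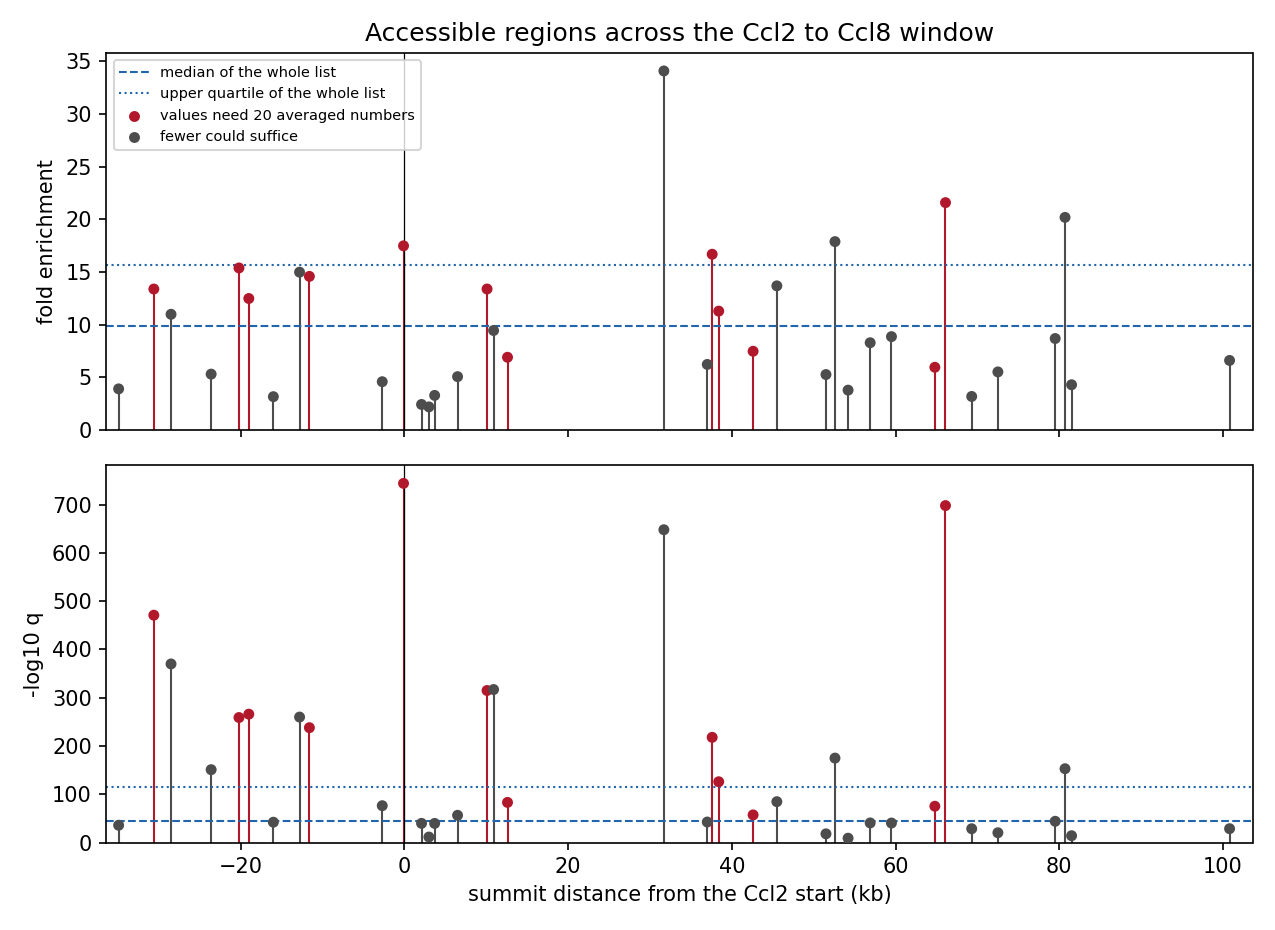
Fold enrichment (upper panel) and −log10 q (lower panel) of the 37 peaks by the distance of the summit from the Ccl2 start in kb; each stem is 1 peak, the vertical line is the Ccl2 start, and blue lines give the median and upper quartile of the whole list. The peak at the Ccl2 start has the highest −log10 q, 744, while the highest fold, 34.1, lies 31.7 kb after it.

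The start of Ccl2 lay inside an accessible region. This peak, chr11:81926057-81926555, was 499 bp wide and reached from 0.3 kb before to 0.2 kb after the start, with its summit 0.1 kb before it. It had a fold of 17.5, the fifth highest of the window, and a −log10 q of 744, the highest. In the whole list, 2.44% of peaks had a higher −log10 q, and on chromosome 11 there were 290 such peaks. It was the only peak within 1 kb of the start.

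Immediately around this promoter peak, the other regions were of low fold. The nearest on the low side, chr11:81923591-81923724 with its summit 2.7 kb before the start, had a fold of 4.60 and a −log10 q of 76.4. On the other side, 3 peaks with summits 2.1, 3.0 and 3.7 kb after the start had folds of 2.44, 2.21 and 3.30. They ranked among the lowest in the list: the fold of the first exceeded only 0.241% of all peaks and that of the second, the weakest of the window, only 0.105%. The first of them, chr11:81928322-81929132, was nevertheless 811 bp wide, a width in the upper 1% of the list, with a −log10 q of 39.8. Ccl2 thus had a single strong region at its start and a broad, shallow one in the 1.9 to 2.7 kb after it. A further region of low fold, chr11:81932523-81932887, with a fold of 5.08, had its summit 6.5 kb after the start. That summit was almost at the far end of the peak (94.8% of the way along it).

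The stretch ahead of Ccl2 held a group of 9 peaks, 6 with folds from 11.0 to 15.4 and 3 with folds from 3.18 to 5.32. These lay 35.0 to 11.5 kb before the start, ahead of an 8.67 kb interval without a peak. Their median fold was 12.5 and none reached the list's upper quartile of fold, yet 7 of the 9 reached its upper quartile of −log10 q. The 2 peaks with the highest −log10 q there were chr11:81895584-81896004, 30.6 kb before the start, with a fold of 13.4 and a −log10 q of 471, and chr11:81897664-81898234, 28.5 kb before it, with a fold of 11.0 and a −log10 q of 370. The second was 571 bp wide. Nearer to the gene, 4 peaks 20.2, 19.0, 12.8 and 11.6 kb before the start had folds of 15.4, 12.5, 15.0 and 14.6, and their −log10 q ranged from 238 to 266. The remaining 3 peaks of the group had low folds of 3.92, 5.32 and 3.18. That with a fold of 5.32 had a −log10 q of 151, above the list's upper quartile. The 4 nearer strong peaks were thus alike in both measures, while the pair farther out had a similar fold and a higher −log10 q.

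Beyond the Ccl2 start, a pair of close peaks stood out from the regions of low fold there. The peak chr11:81936224-81936609, 10.1 kb after the Ccl2 start, was 386 bp wide and had a fold of 13.4 and a −log10 q of 315. Only 0.682 kb farther, chr11:81937292-81937433 was 142 bp wide with a fold of 9.46, but had an almost equal −log10 q of 317. Another peak 12.6 kb after the start was weaker, with a fold of 6.92. After this group came 18.7 kb without any peak, the longest such interval but one in the window.

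The strongest region by fold lay beyond that interval. It was chr11:81957878-81958280, a peak of 403 bp with its summit 31.7 kb after the Ccl2 start, a fold of 34.1 and a −log10 q of 648. Only 0.859% of the list, and 63 peaks on chromosome 11, had a higher fold. Its neighbours were 18.7 and 5.04 kb away. Which gene it lies in or near was not determined.

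Farther on, 17 of the 18 remaining peaks lay in groups, and each group held 1 peak at or above the list's upper quartile of fold among weaker ones. In the group 36.9 to 45.6 kb after the Ccl2 start, that peak was chr11:81963861-81964131, with a fold of 16.7 and a −log10 q of 218, and the other 4 had folds from 6.24 to 13.7. In the group from 51.4 to 59.6 kb, it was chr11:81978871-81979088, with a fold of 17.9 and a −log10 q of 175, beside 4 peaks of 3.80 to 8.88. The lowest −log10 q of the window, 9.10, belonged to this group.

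The widest region of the cluster lay in the next group, from 64.7 to 72.5 kb after the Ccl2 start. The peak chr11:81992125-81992942 spanned 818 bp, with its summit 66.1 kb after the start, a fold of 21.6 and a −log10 q of 698, the second highest of the window in both measures. The similarly wide region after Ccl2 had a fold of 2.44. Its 3 companions had folds of 5.97, 3.20 and 5.53. In the last group, 79.4 to 81.7 kb after the start, the peak chr11:82007010-82007142 was 133 bp wide and had the third highest fold, 20.2, with a −log10 q of 153. Then came 19.1 kb without a peak, and a last weak region at 100.8 kb with a fold of 6.62.

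Neighbouring peaks in the window were close together, which goes with their high density. The median distance between neighbouring peaks was 2474 bp, against 5092 bp over the autosomes and X, and 29 of 36 intervals (80.6%) were at most 5 kb, against 49.3%. The groups above are the runs left when the 7 longer intervals divide the window, a division made after the list was seen. The shortest of the 7, 5.04 kb, is below the list's median distance. Whether peaks gather in runs beyond what their density gives was not tested.

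The −log10 q of the window's peaks was high for their fold, above all around and ahead of Ccl2. Each peak's −log10 q was divided by the median −log10 q of all list peaks in the same percentile of fold, so that 1 is the usual value. The median of this ratio in the window was 2.63, and 34 of 37 peaks were above 1. The ratio was at least 2 for 23 of 37 peaks (62.2%), against 21.0% of the list and 26.7% of chromosome 11. In the adjoining windows it was at least 2 for 1 of 12 peaks on the low side and 3 of 16 on the high side. When peaks were matched on width as well as fold, 22 of the 37 had a ratio of at least 2, against 17.8% of the list. Other crowded windows shared part of this: over the 111 tiled windows with at least 37 peaks, the median ratio had a median of 1.94, and 13 of them had one at least as high as the chemokine window.

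The ratio was uneven along the cluster. All 10 peaks before the Ccl2 start had a ratio of at least 2, from 2.49 to 10.8, and the promoter peak had 6.73. Of the 26 peaks after the start, 12 did, with a median of 1.78. The highest values were 10.8 at chr11:81902670-81903030, 23.6 kb before the start, where a fold of only 5.32 went with a −log10 q of 151, and 10.1 at the narrow peak 10.9 kb after it. The strongest peak by fold, 31.7 kb after the start, had a ratio of 1.03. The 3 peaks 79.4 to 81.7 kb after the start had ratios from 0.994 to 1.71, near the usual value. Depth, copy number and local background were not measured per sample, and their part in this pattern was not tested.

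**Figure D3:**
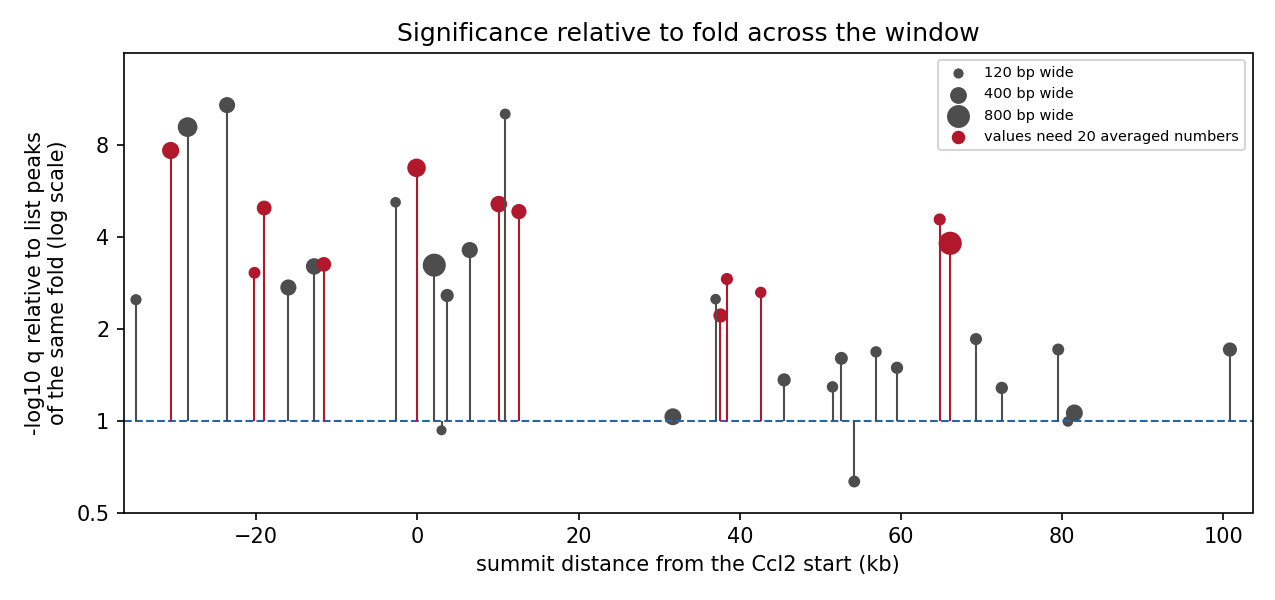
Ratio of each peak's −log10 q to the median of list peaks in the same fold percentile (y axis, log scale) by distance of the summit from the Ccl2 start in kb (x axis), with point area set by peak width and red for peaks whose values need 20 averaged numbers. Ratios run from 2.49 to 10.8 before the start and are mostly below 2 from 45 kb onwards, with 2 exceptions of 4.56 and 3.81.

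The digits of the deposited values limit which numbers of averaged values fit each peak, among the numbers from 1 to 20 that were tried. Every deposited score could be written as a mean of at most 20 whole numbers, and fold and −log10 q as means of equally many numbers of at most 5 decimals. For 12 of 37 peaks (32.4%) no number below 20 could give all 3 values, against 20.1% of the list. Among the 12 were the Ccl2 promoter peak, the wide peak at 66.1 kb and 4 of the 9 peaks in the group ahead of Ccl2. The wider peak of the close pair, 10.1 kb after the Ccl2 start, also belonged to them. These 12 had folds from 5.97 to 21.6 with a median of 13.4, and the other 25 had a median of 5.53. The others are not shown to rest on fewer numbers: the strongest peak by fold could be a mean of 4, 8, 12, 16 or 20. Under this reading, some did not reach 20. The peak chr11:81963320-81963453 fits 14 alone and chr11:81983187-81983346 fits 18 alone. The narrow peak 10.9 kb after the Ccl2 start, with its high −log10 q, fits 6, 12 or 18. What was averaged is not stated in the sources used here, and no peak can be tied to a genotype or treatment by it. The study has 19 samples, so a plain mean of 20 numbers is not a mean of a single value per sample. Over the list, the smallest number that fits took each value from 1 to 10, and above that only even values from 12 to 20. A mean of means can also need such a number, so it need not be a count of the values averaged. How the values were averaged was not tested. Needing 20 therefore does not show that a peak was present in every sample. Within the window, the ratio above moved with this number: it was at least 2 in all 12 of these peaks and in 11 of the other 25. The share of all list peaks needing 20 that had such a ratio is not given here. When the 12 were set only against list peaks that also needed 20, 7 had a ratio of at least 2, against 20.6% of such peaks in the list.

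**Figure D4:**
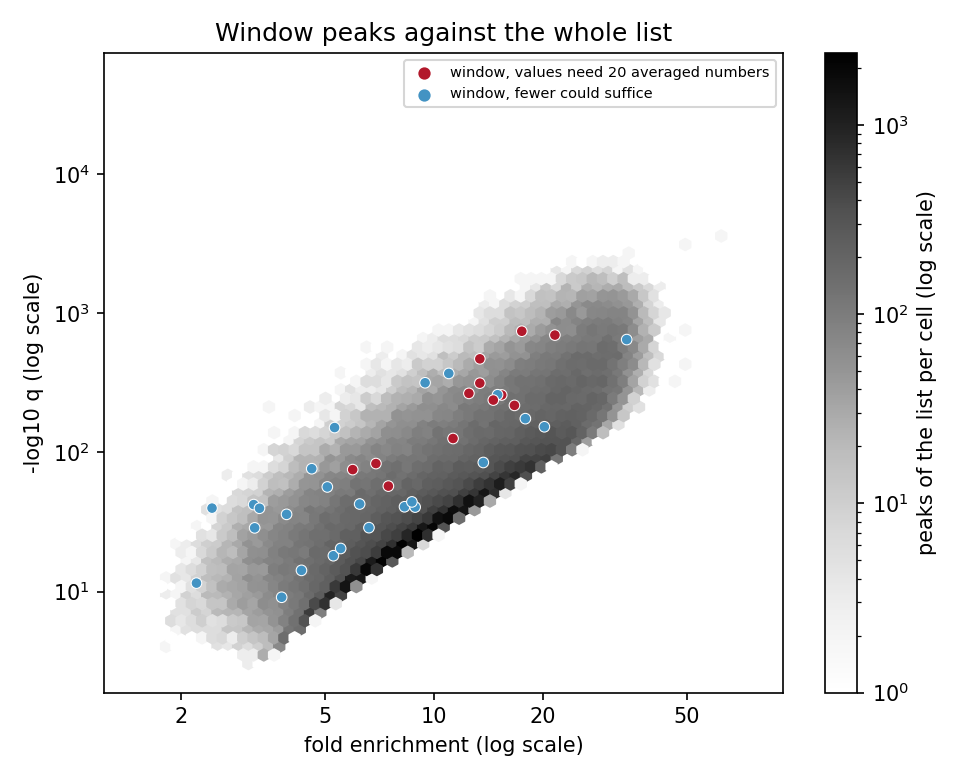
Fold enrichment (x axis, log scale) against −log10 q (y axis, log scale) for the whole list in grey, shaded by the number of peaks, and for the 37 window peaks in colour, red where the values need 20 averaged numbers. Most window peaks of low and middle fold lie above the densest part of the cloud, and the peak with a fold of 34.1 lies within it.

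Over the list, the share of peaks that needed 20 numbers was higher in each successive quartile range of fold, while in the window it was highest in the one above the median. Among the 16 window peaks with a fold below the list's lower quartile of 6.71, 1 needed 20, compared with 4.06% of such peaks over the list. Among the 6 between that quartile and the median of 9.85, 2 did, compared with 11.7%. Among the 9 between the median of 9.85 and the upper quartile of 15.7, 6 did, compared with 27.7%. Of the 6 at or above the upper quartile 3 did, compared with 36.9%. The counts are small and no test was made. Across the 37 peaks, which come from the same pooled samples, the rank correlation of fold with −log10 q was 0.821 (Spearman), and over the list it was 0.836.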

How the data were processed

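Open chromatin was measured by ATAC-seq in 19 samples of macrophages. The build was mm39, and the submitters' processing notes name deepTools 3.5.1, MACS2 2.2.7.1, Picard 2.27.4 and STAR 2.7.9a. What each tool did, whether reads were shifted, which threshold set the peaks and how peaks and summits were combined is not given in the sources used here. Score, fold enrichment (a ratio) and −log10 q are the authors' deposited values per peak, pooled over all samples, and were used only to describe and rank peaks. Coordinates were read as counted from 1, since a count from 0 would put 74 summits outside their peak. Width is end minus start plus 1, and the summit is the start plus the deposited offset.

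A peak belonged to the cluster if it overlapped the window by any base. Tiles were counted by summit. Whole numbers were accepted within 1e-06, and numbers from 1 to 20 were tried. That step was run on simulated plain means of known numbers of values. The check asked only that the true number be among those that fit, and means of means were not simulated. Every peak at or above the list's upper quartile of fold was named, with the widest, the weakest, that of highest −log10 q and the one at the Ccl2 start; others were named after their values were seen. RefSeq tables matched 5 of 5 genes and 2 of 5 promoters. The members, lists and ratio were chosen with earlier results of these data known. Planned results by gene start other than Ccl2, on cell type markers, related chemokine and receptor genes, motifs in peaks and proteins were not run, because no mm39 annotation, genome or protein table was used here. Alternatives were a stricter −log10 q, merging, summit position, a shorter window, and scores that are no whole number. Scripts ran in Python 3.11.15 with pandas 2.3.3, numpy 2.4.6, matplotlib 3.10.9 and scipy 1.17.1.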

Additional observations from a re-analysis of the deposited data

How the results depend on the processing

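Of 33 alternative values over 7 results, 27 stayed within 1.5 times the count or within the 95% order-statistic interval of the median, an interval that treats peaks as independent. With only peaks at or above the list's median −log10 q, the window held 22 peaks with a median fold of 13.4 and a median −log10 q of 228, which follows from removing weak peaks. With only peaks whose −log10 q was below 2 times the usual value for their fold, an alternative chosen after seeing the data, 14 peaks were left, with a median −log10 q of 34.7 and 3 at or above the upper quartile of fold. Merging peaks within 100 bp and asking for the summit inside the window changed none of the values. Neither could change the window's peaks, since the closest lie 274 bp apart and none crosses an edge. Their values among the 27 are therefore no sign of stability. The shorter window held 30 peaks. No paired analysis was possible because the deposited peaks are pooled over samples, and for the same reason no replicate could be left out. The depth is unknown, so a stretch without a listed peak is not shown to be closed.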
